A study of Mus musculus with 14 samples.

Results

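The matrix genes Lum, Dcn, Ogn, Bgn, Mgp, Lox and Tgfbi were followed across 14 mouse arrays. They are 7 of the 16593 gene symbols on the array and are read by 11 of its 25697 probes, each of which was taken by its annotated symbol. The set is one of secreted matrix proteins rather than of proteoglycans alone: Lum, Dcn, Ogn and Bgn encode small leucine-rich proteoglycans, whereas Mgp, Lox and Tgfbi do not encode proteoglycans. The members were chosen by their signal on these arrays, as genes to set against the level in mouse embryonic fibroblasts (MEFs), so every difference from MEFs is given as a description with no test. Comparisons among the pluripotent groups, which use no MEF array as either side, were tested.

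Each of 7 groups had 2 arrays, all from strain C57/B6, and the series' design text says that RNA came from cells sorted by flow cytometry. Single-reporter serum ESCs were embryonic stem cells from an O4-DE-GFP blastocyst, with the Oct4 distal-enhancer GFP reporter alone, in serum plus LIF; the labels give them no sort gate. EpiSCs were epiblast stem cells from epiblasts of embryonic day 6.5 (1 label reads 6.6), and no reporter is given for them. A double-reporter ESC line (O4-DE-GFP/O4-PE-RFP) also carried tdTomato (RFP) in a 6 kb Oct4 fragment without the distal enhancer, and it gave 4 groups. These were EpiLCs (epiblast-like cells), sorted GFP-negative and RFP-positive; 2i ESCs in N2B27 with LIF, 3 µM CHIR99021 and 1 µM PD0325901, sorted GFP-positive and RFP-negative; RFP-positive serum ESCs, sorted GFP-positive and RFP-positive in serum plus LIF; and RFP-negative serum ESCs, sorted GFP-positive and RFP-negative in the same medium. MEFs were the fibroblast group, with no reporter or gate given. The sources used here do not say whether the pluripotent cells grew on fibroblast feeders. Nothing in the labels says that 2 arrays of a group came from separate cultures, so the p-values reflect array-to-array spread alone, and that spread may be technical.

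Small leucine-rich proteoglycans are secreted proteins with a horseshoe-shaped core that binds collagen, and they set how fibrils of connective tissue assemble. Lysyl oxidase (Lox) oxidizes lysines of collagen and elastin so that the fibres cross-link, matrix Gla protein (Mgp) is a vitamin K-dependent inhibitor of calcification, and Tgfbi is a TGF-beta-induced adhesion protein of the matrix. Fibroblasts are a typical source of these transcripts in connective tissue. In a bulk sample, fewer cells of a type and less RNA per cell cannot be told apart.

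The promoter sequences used, from RefSeq (GRCm38.p6), held no entry for Lum, Dcn and Mgp, and Lox was left out. Sequences of 3 of the 7 genes, Bgn, Ogn and Tgfbi, are shown so that start regions can be set beside the levels of these genes. Each runs 5′ to 3′ on the plus strand, the strand of the gene, from 250 bases before the start of the gene to 50 bases after it. The windows are chrX:73483351-73483650 for Bgn, chr13:49607765-49608064 for Ogn and chr13:56609336-56609635 for Tgfbi. Capitals mark a match on either strand to 1 of 5 motifs searched. They were the TATA box, searched for as TATAAA. The GC box was searched for as GGGCGG, and the TEAD motif was searched for as CATTCC. The AP-1 motif was searched for as TGANTCA. The core of the SMAD motif was searched for as CAGAC.
Bgn: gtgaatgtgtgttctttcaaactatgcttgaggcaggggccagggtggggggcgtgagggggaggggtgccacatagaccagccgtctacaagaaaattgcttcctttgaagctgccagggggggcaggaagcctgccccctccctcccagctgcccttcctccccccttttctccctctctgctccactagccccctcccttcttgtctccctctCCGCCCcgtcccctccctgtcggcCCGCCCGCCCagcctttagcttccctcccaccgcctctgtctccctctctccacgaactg
Ogn: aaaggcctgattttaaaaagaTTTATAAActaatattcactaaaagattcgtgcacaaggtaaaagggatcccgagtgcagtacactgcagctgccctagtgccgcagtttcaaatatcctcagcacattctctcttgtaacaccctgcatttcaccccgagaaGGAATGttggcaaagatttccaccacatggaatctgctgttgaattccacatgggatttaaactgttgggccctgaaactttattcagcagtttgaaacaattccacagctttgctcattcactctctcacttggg
Tgfbi: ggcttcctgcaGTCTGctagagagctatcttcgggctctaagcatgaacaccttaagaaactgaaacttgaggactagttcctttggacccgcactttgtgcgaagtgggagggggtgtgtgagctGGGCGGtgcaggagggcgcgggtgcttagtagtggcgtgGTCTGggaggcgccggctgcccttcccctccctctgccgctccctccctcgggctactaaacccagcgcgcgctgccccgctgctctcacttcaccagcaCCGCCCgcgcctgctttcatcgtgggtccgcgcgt

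The Bgn window held 63.7% G and C and 3 GGGCGG matches, all on the minus strand, whose leftmost bases lay at -34, -10 and -6 from the start, the last pair overlapping. Tgfbi held 63.3% G and C, with GGGCGG at -124 and 16 and CAGAC at -239 and -85. Ogn held 42.3% G and C, with no GGGCGG, overlapping TATAAA matches on both strands at -229 and -227, and CATTCC at -86. Over 32851 promoter windows of this length the median G and C content was 52.7%, and the share with a match was 35.7% for GGGCGG, 49.6% for CAGAC, 14.7% for CATTCC, 13.6% for TATAAA and 7.81% for TGANTCA, which none of the 3 windows held. A match describes letters alone.

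Values below are normalized log2 signals of a gene's brightest detected probe, and a probe was detected where its detection p-value was under 0.05. Background-corrected signals carry an added constant, so log2 differences of dim probes are understated, and levels are compared within a probe, never between probes. The scanner signal had a median of 313.5 and 316.8 in EpiSCs and of 142.6 to 209.4 in the other groups, and 11916 to 13815 probes were detected per array. Of the 7 matrix genes, 7 were detected on both arrays in single-reporter serum ESCs (83.2% of all genes tested), 4 in EpiSCs (83.2%), 4 in EpiLCs (82.9%), 6 in 2i ESCs (81.1%), 5 in RFP-positive serum ESCs (84.8%), 5 in RFP-negative serum ESCs (86.4%) and 7 in MEFs (77.4%). All 8 pluripotency markers were detected on every pluripotent array and 2 of 8 on each MEF array.

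The EpiSC arrays stood apart from each other. Across genes they correlated at 0.976, against 0.997 to 0.998 for the pairs of the other groups, and 590 of 10481 genes (5.63%) lay at least 2-fold apart between them. In 402 genes (3.84%) array 2 was at least 2-fold higher, and so it was in 5 of the 7 matrix genes. Fibroblast markers also differed: their summed log2 level over 13 tested genes was 81.6 on EpiSC array 1, with 6 of 13 detected, and 101 on array 2, with 10 of 13 detected. In the other groups that sum was 119 and 120 in single-reporter serum ESCs, 86.5 and 85.5 in EpiLCs, 96.7 and 95.8 in 2i ESCs, 99.6 and 101 in RFP-positive serum ESCs, 101 and 99.6 in RFP-negative serum ESCs, and 155 and 157 in MEFs. Smooth muscle or myofibroblast markers (5 tested genes) summed to 48.8 and 49.0 in single-reporter serum ESCs, 34.6 and 45.3 in EpiSCs, 36.8 and 36.7 in EpiLCs, 32.2 and 32.5 in 2i ESCs, 41.4 to 41.7 in both serum double-reporter groups and 60.7 and 60.9 in MEFs. Of the 13 fibroblast markers, 11 and 12 were detected in single-reporter serum ESCs and 10 to 12 in the serum double-reporter groups. The counts were 11 and 10 in 2i ESCs, 8 and 6 in EpiLCs and 12 on each MEF array. Of the 5 smooth muscle or myofibroblast markers, 4 were detected on each single-reporter and serum double-reporter array. That count was 2 on each 2i array and 3 on each EpiLC array. Within these lists, Fap was not detected on any pluripotent array and was detected on both MEF arrays, and Myh11, of the smooth muscle list, was likewise. The part of fibroblast RNA in the levels below was not tested. Comparisons are given with all arrays and with each EpiSC array left out in turn. Below, "without either EpiSC array" means that 1 EpiSC array was left out at a time, with the same result whichever it was.

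**Figure D1:**
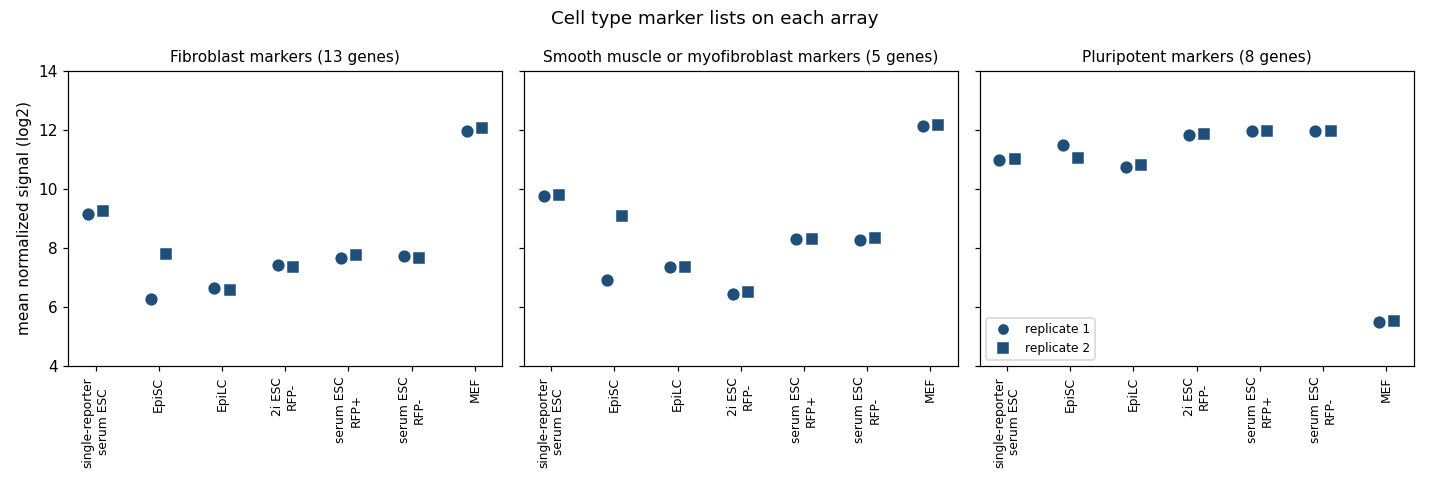
Mean normalized log2 signal of the fibroblast, smooth muscle or myofibroblast and pluripotent marker lists on each array (circles replicate 1, squares replicate 2), by group. Fibroblast markers are highest on the MEF arrays, next on the single-reporter arrays, and the EpiSC arrays lie apart from each other.

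Among the proteoglycans, Lum (lumican, which binds collagen fibrils) read 11.07 and 10.97 in single-reporter serum ESCs, 4.94 and 5.78 in EpiSCs, 5.04 and 4.96 in EpiLCs and 7.36 and 7.55 in 2i ESCs. It read 6.34 and 6.41 in RFP-positive serum ESCs, 6.59 and 6.45 in RFP-negative serum ESCs, and 8.33 and 8.25 in MEFs. Both single-reporter arrays lay above both MEF arrays and the other 10 pluripotent arrays lay below them; EpiLC arrays and EpiSC array 1 did not detect it. The mean of single-reporter serum ESCs was 2.73 log2 above that of MEFs, a 6.65-fold higher signal. The 2i ESCs held 56.1% of the MEF signal, RFP-positive serum ESCs 26.5% and RFP-negative serum ESCs 29.4%, and EpiLCs were at least 5.66-fold lower than MEFs.

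Dcn (decorin, which binds collagen and TGF-beta) read 13.44 and 13.32 in single-reporter serum ESCs, 7.59 and 11.13 in EpiSCs, 8.82 and 8.89 in EpiLCs and 10.26 and 10.15 in 2i ESCs. It read 10.62 and 10.66 in RFP-positive serum ESCs, 10.72 and 10.55 in RFP-negative serum ESCs, and 13.30 on both MEF arrays. The single-reporter mean differed from that of MEFs by 0.08 log2 on this probe, while the second Dcn probe read 9.92 and 9.94 in single-reporter serum ESCs and 10.54 and 10.49 in MEFs, a difference of -0.58 log2. The 2 probes thus gave opposite signs for a difference under 1 log2. On the first probe the double-reporter groups held 4.59% of the MEF signal in EpiLCs, 11.7% in 2i ESCs, 15.8% in RFP-positive and 15.8% in RFP-negative serum ESCs.

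Ogn (osteoglycin, also called mimecan) read 9.88 and 9.99 in single-reporter serum ESCs, 6.08 and 6.09 in 2i ESCs, and 13.81 and 13.69 in MEFs. It was not detected on any array of the EpiSC, EpiLC or serum double-reporter groups, where it read 4.87 to 5.26. MEFs were therefore the highest group, and single-reporter serum ESCs held 7.10% of their signal and 2i ESCs 0.492%. The bounds of the other groups were at least 263-fold lower than MEFs in EpiSCs, 249-fold in EpiLCs, 263-fold in RFP-positive and 275-fold in RFP-negative serum ESCs. The other 2 Ogn probes were detected on MEF arrays alone, at 9.52 to 10.16, and single-reporter serum ESCs were at least 14.5-fold and 17.8-fold lower there. Differences of Ogn between pluripotent groups, given below, therefore rest on the brightest probe alone.

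Bgn (biglycan, the X-linked relative of decorin) read 15.26 and 15.23 in single-reporter serum ESCs, 8.54 and 13.37 in EpiSCs, 9.21 and 9.30 in EpiLCs and 11.69 and 11.56 in 2i ESCs. It read 12.91 and 12.92 in RFP-positive serum ESCs, 13.03 and 13.02 in RFP-negative serum ESCs, and 15.93 and 15.91 in MEFs. No group overlapped the MEF arrays, and EpiSC array 2 lay above both serum double-reporter groups while EpiSC array 1 lay below both EpiLC arrays. Single-reporter serum ESCs held 62.6% of the MEF signal, 2i ESCs 5.11%, EpiLCs 0.987%, RFP-positive serum ESCs 12.5% and RFP-negative serum ESCs 13.5%. In MEFs, 22 and 24 probes of 25697 were brighter, so this level lay near the top of the scale.

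**Figure D2:**
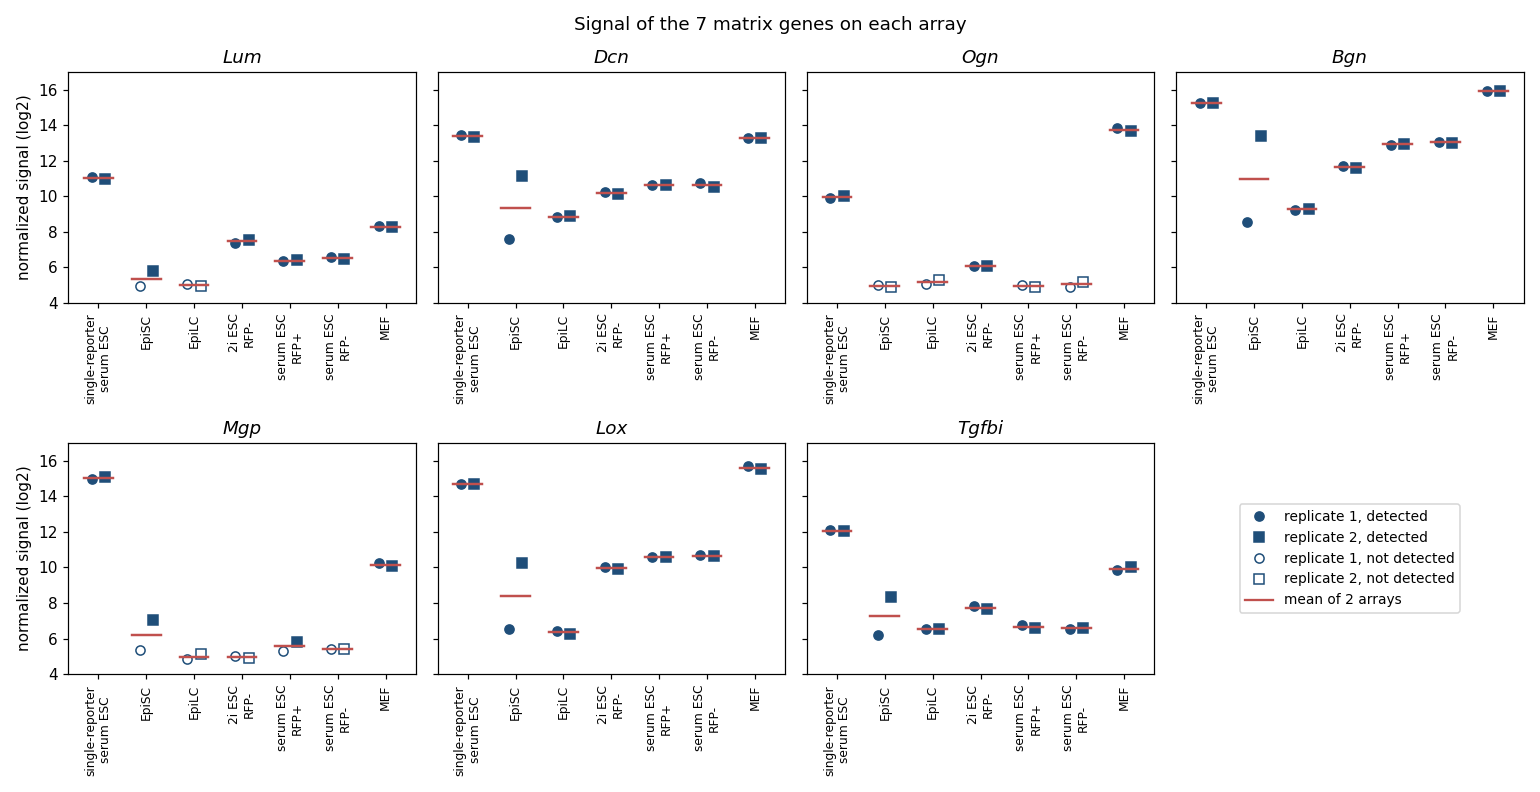
Normalized log2 signal of each of the 7 genes on each array by group, with MEFs at the right; filled points were detected, hollow points were not, circles are replicate 1, squares replicate 2, and bars are means of 2 arrays. The single-reporter arrays lie above the MEF arrays for Lum, Mgp and Tgfbi, and the EpiSC arrays lie far apart for Dcn, Bgn, Lox and Tgfbi.

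Mgp read 14.98 and 15.07 in single-reporter serum ESCs, 5.34 and 7.06 in EpiSCs, 4.86 and 5.10 in EpiLCs and 5.03 and 4.88 in 2i ESCs. It read 5.32 and 5.79 in RFP-positive serum ESCs, 5.40 and 5.42 in RFP-negative serum ESCs, and 10.26 and 10.07 in MEFs. Outside the single-reporter and MEF groups it was detected on 2 arrays, EpiSC array 2 and RFP-positive array 2. Single-reporter serum ESCs were 4.86 log2 above MEFs, a 29.1-fold higher signal, whereas EpiLCs were at least 20.7-fold, 2i ESCs at least 19.8-fold and RFP-negative serum ESCs at least 22.9-fold lower than MEFs.

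Lox read 14.72 and 14.71 in single-reporter serum ESCs, 6.55 and 10.26 in EpiSCs, 6.44 and 6.26 in EpiLCs and 10.03 and 9.91 in 2i ESCs. It read 10.59 and 10.61 in RFP-positive serum ESCs, 10.68 and 10.63 in RFP-negative serum ESCs, and 15.71 and 15.52 in MEFs. Lox was detected on all 14 arrays, and every pluripotent array lay below both MEF arrays. Single-reporter serum ESCs held 53.5% of the MEF signal, 2i ESCs 2.00%, EpiLCs 0.163%, RFP-positive serum ESCs 3.09% and RFP-negative serum ESCs 3.22%.

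Tgfbi read 12.11 and 12.04 in single-reporter serum ESCs, 6.21 and 8.35 in EpiSCs, 6.52 and 6.52 in EpiLCs and 7.83 and 7.65 in 2i ESCs. It read 6.74 and 6.61 in RFP-positive serum ESCs, 6.56 and 6.62 in RFP-negative serum ESCs, and 9.84 and 10.05 in MEFs. Single-reporter serum ESCs were 2.13 log2 above MEFs, a 4.38-fold higher signal, and the second Tgfbi probe, at 9.83 and 9.84 against 6.75 and 6.79 in MEFs, gave 3.07 log2. The second probe was not detected on any EpiLC, 2i or double-reporter serum array.

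**Figure D3:**
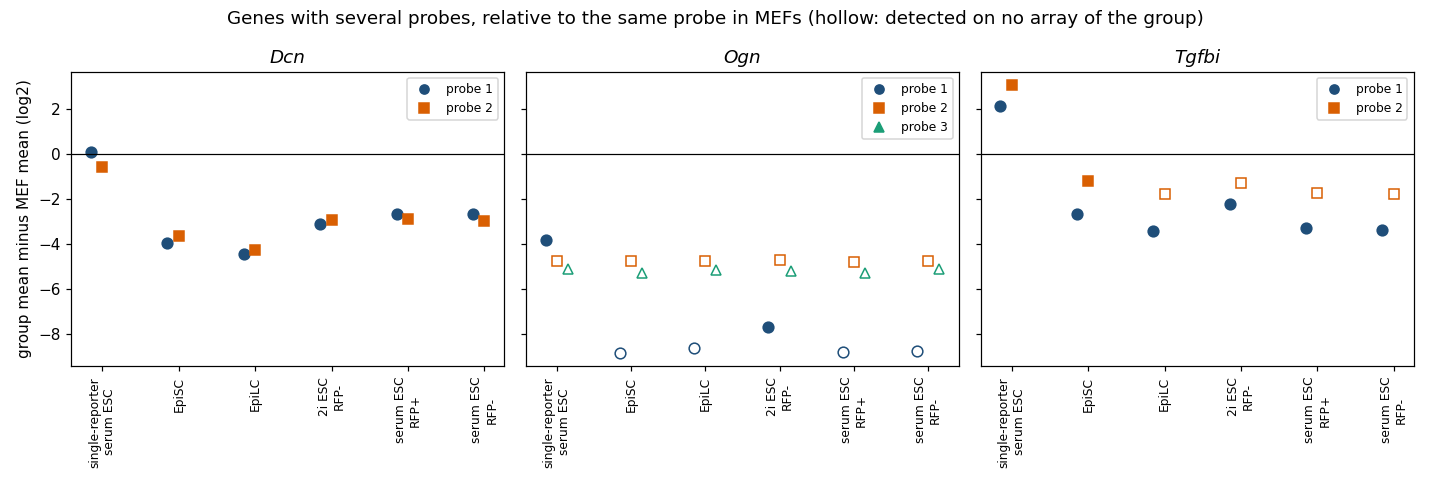
Group mean minus MEF mean (log2) for each probe of Dcn, Ogn and Tgfbi in the 6 pluripotent groups; each probe is compared with itself in MEFs, and hollow symbols were detected on no array of the group. Dcn probes lie on opposite sides of 0 in single-reporter serum ESCs (0.08 and -0.58), and both Tgfbi probes lie above 0 there.

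The share of the MEF signal differed widely between genes of 1 group, counting signals that were not detected at their measured value. It ran from 7.10% (Ogn) to 29.1-fold (Mgp) in single-reporter serum ESCs, with a median of 106%, and from 0.222% to 15.8% in EpiSCs, with a median of 6.41%. In EpiLCs it ran from 0.163% to 10.2% (median 2.76%), in 2i ESCs from 0.492% to 56.1% (median 5.11%), in RFP-positive serum ESCs from 0.226% to 26.5% (median 10.4%) and in RFP-negative serum ESCs from 0.237% to 29.4% (median 9.80%). Of the 7 genes, 3 were at least 2-fold higher in single-reporter serum ESCs than in MEFs and 1 at least 2-fold lower (22.2% and 23.5% of all genes tested). At least 2-fold lower than MEFs were 7 of 7 in EpiSCs (20.4% of all genes), 7 in EpiLCs (21.9%, with 23.2% at least 2-fold higher), 6 in 2i ESCs (24.2%), 7 in RFP-positive serum ESCs (24.6%) and 7 in RFP-negative serum ESCs (24.4%), and none was higher. The EpiSC means stand between unlike arrays: shares of the MEF mean ran from 0.187% to 9.83% on array 1, with a median of 1.91%, and from 0.213% to 33.2% on array 2, with a median of 17.1%. Shares of dim signals also depended on the background correction. Without it 20 of the 42 shares were over 1.5 times higher, in 5 groups for Ogn and Mgp, 4 for Lum and Tgfbi, 2 for Lox and 0 for Dcn and Bgn. Lum then held 47.9% of the MEF signal in RFP-positive serum ESCs, Tgfbi 20.8% there and Lox 0.420% in EpiLCs. The choice of the genes for their MEF level fixes these counts in part, so they are descriptions.

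**Figure D4:**
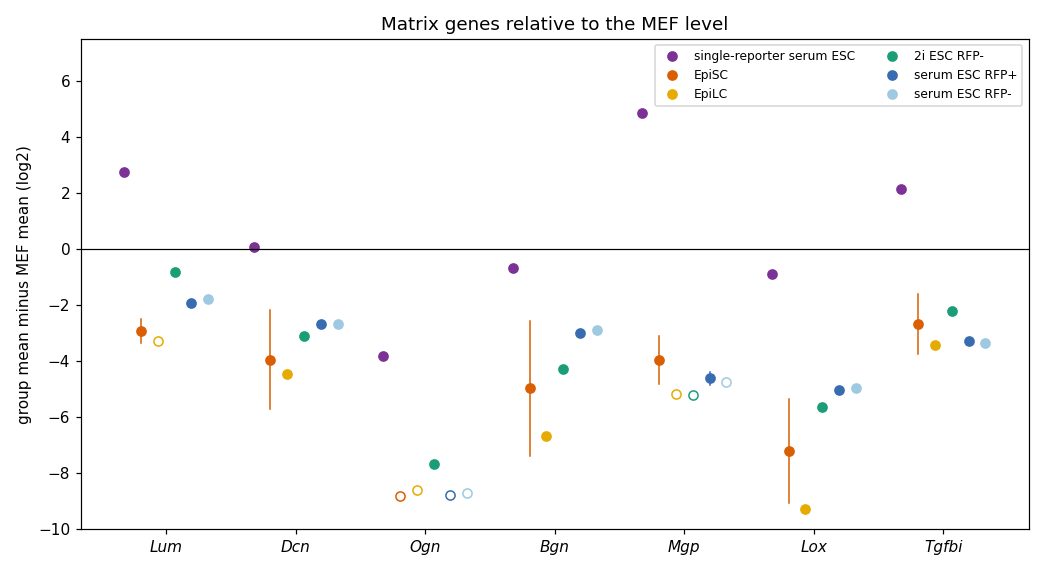
Group mean minus MEF mean (log2) of the 7 genes in the 6 pluripotent groups; lines join the values of 2 arrays against the MEF mean, and hollow points were detected on no array. Single-reporter serum ESCs lie above the MEF line for Lum, Mgp and Tgfbi and at -3.82 for Ogn, and the other groups lie below it.

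Single-reporter serum ESCs were compared with the mean of both double-reporter serum groups, which share medium but differ in line and in the stated gate. Of the 7 genes, 6 were higher and 0 lower at an adjusted p under 0.05 (limma, Benjamini-Hochberg over 10481 genes), where 63.1% of all genes were called, 31.3% higher and 31.8% lower. Ogn was detected on 0 of the 4 double-reporter arrays and Mgp on 1, so both could hardly be called lower, which fixes this count in part. Mgp rose by 9.55 log2 (SE 0.36, adjusted p = 3.5e-08); it was detected on 1 of the 4 double-reporter arrays, so the value depends on signals near background. Tgfbi rose by 5.44 log2 (SE 0.43, adjusted p = 2.8e-06) and Lum by 4.57 log2 (SE 0.18, adjusted p = 4.4e-08). Ogn was at least 19.1-fold higher (adjusted p = 2.0e-09), Lox was higher by 4.08 log2 (SE 0.74, adjusted p = 0.00083) and Dcn by 2.75 log2 (SE 0.71, adjusted p = 0.0067). Bgn differed by 2.27 log2 (SE 0.96, 95% interval 0.12 to 4.43, adjusted p = 0.063). Its 2 and 4 arrays did not overlap, and the share of all genes without overlap was not counted. Without either EpiSC array Bgn was called too (adjusted p = 3.0e-09), which gave 7 of 7 where 35.5% of all genes were called higher. The median difference was 4.57 log2 over the 7 genes and 0.00 over all genes tested. Fibroblast markers moved with these genes, at sums of 119 and 120 in single-reporter serum ESCs against 99.6 to 101 in double-reporter serum ESCs, and of the markers S100a4 read 5.69 and 6.94 against 7.49 to 7.76. Smooth muscle or myofibroblast sums were 48.8 and 49.0 against 41.4 to 41.7, and extraembryonic endoderm sums (8 tested genes) 74.4 and 74.6 against 65.7 to 67.0. The endoderm list read highest in MEFs, at 82.0 and 81.4, so a higher sum does not tell endoderm from fibroblast RNA. Pluripotency sums (8 genes) were 87.9 and 88.0 in single-reporter serum ESCs against 95.6 to 95.8 in double-reporter serum ESCs, and epithelial sums (4 tested genes) 36.9 and 36.2 against 39.8 to 40.5. The part of any of these in the result was not tested.

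Other matrix genes of the same comparison were counted in lists. Of 13 other small leucine-rich proteoglycans listed, 5 passed the detection filter and were tested, and 4 rose and 0 fell (median 1.26 log2). Prelp rose by at least 15.2-fold, the collagen-binding Fmod by at least 2.58-fold and Podn by at least 1.495-fold. Prelp, Fmod and Podn were not detected on any double-reporter serum array, so they could only be called higher, which fixes this count in part. Of 14 large proteoglycans and hyaluronan-binding genes 10 rose and 1 fell, among them the syndecans Sdc3 (2.82 log2), Sdc2 (2.40 log2) and Sdc1 (at least 5.50-fold), which are cell-surface heparan sulfate proteoglycans. Of 17 genes of collagen cross-linking and maturation 15 rose and 1 fell, including Loxl1 (2.73 log2), a relative of Lox, and the prolyl hydroxylase subunits P4ha1 (2.45 log2) and P4ha3 (at least 4.58-fold). Of 8 collagen genes 6 rose and 0 fell, led by Col1a1 (3.80 log2), Col6a2 (2.91 log2) and Col6a1 (2.69 log2); collagen VI forms beaded filaments rather than banded fibrils, and Col1a1 is also a fibroblast marker here.

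Elastic fibre and microfibril genes rose in 9 of 11 tested and fell in 0, with Mfap2 at 3.19 log2, Ltbp3 at 2.64 log2 and Mfap4 at least 3.39-fold higher. Of 12 genes of the TGF-beta axis 8 rose and 2 fell, with the ligand Tgfb3 at 3.70 log2, the receptor Tgfbr2 at 3.02 log2 and the target Ccn2 at 1.94 log2. Of 13 genes that build glycosaminoglycan chains 5 rose and 1 fell: the sulfotransferase Chst12 by 1.33 log2 and the linker enzyme B3gat3 by 1.26 log2, while the linker enzyme B3galt6 fell by 1.61 log2. Of 4 genes of Gla protein carboxylation and its clients 2 rose, the Gla protein Gas6 by 2.83 log2 and the vitamin K reductase Vkorc1 by 1.05 log2, and 4 were called without either EpiSC array. Every gene named from these lists had an adjusted p of 0.0069 or lower in limma, beside the 31.3% of all genes called higher.

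Between the serum gates no matrix gene was called: 0 of 7 in RFP-positive against RFP-negative serum ESCs, where limma called 0.124% of all genes, all lower, and 0 of 7 had an unadjusted p under 0.05. The differences ran from -0.15 log2 (Lum) to 0.15 log2 (Mgp). Their 95% intervals reached from -2.60 to 2.38 for Bgn with all arrays and from -0.26 to 0.03 without either EpiSC array, where 0.439% of all genes were called, 0.0286% higher and 0.41% lower, and again 0 of 7. The groups did not overlap for Lum, Bgn and Lox, at differences of -0.15, -0.11 and -0.06 log2. Groups of so few arrays can lie apart without a true difference, and the share of all genes without overlap was not counted. No gene of the companion lists was called.

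In 2i ESCs against RFP-negative serum ESCs, 2 of 7 genes were higher and 0 lower, where 39.7% of all genes were called, 19.7% higher and 20% lower (limma). Lum rose by 0.93 log2 (SE 0.21, adjusted p = 0.0062), and Ogn, not detected in RFP-negative serum ESCs, was at least 1.35-fold higher (adjusted p = 6.1e-05). Ogn could only be called higher there, and its other 2 probes were detected in neither group. Tgfbi differed by 1.15 log2 (SE 0.50, adjusted p = 0.097), Bgn by -1.40 (SE 1.11), Lox by -0.69 (SE 0.86) and Dcn by -0.43 (SE 0.82). None of these 4 overlapped between the groups. Pairs of 2 arrays can lie apart without a true difference, and the share of all genes that did so was not counted. Without either EpiSC array all 7 were called, 3 higher and 4 lower, where 50.2% of all genes were called, 24.7% higher and 25.4% lower: Tgfbi joined the higher genes (adjusted p = 9.0e-06), and Bgn (3.1e-07), Lox (0.00017), Dcn (0.0018) and Mgp (0.033), which was not detected in either group, were called lower in limma. Fibroblast marker sums were 96.7 and 95.8 in 2i ESCs and 101 and 99.6 in RFP-negative serum ESCs. Smooth muscle or myofibroblast sums differed more, at 32.2 and 32.5 in 2i ESCs with 2 of 5 markers detected, against 41.4 and 41.7 in RFP-negative serum ESCs with 4 of 5 detected. Extraembryonic endoderm sums were 60.2 and 60.0 in 2i ESCs against 67.0 and 65.7 (82.0 and 81.4 in MEFs). Epithelial sums were 36.8 and 36.6 against 40.2 and 40.5. The part of these in the result was not tested.

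The counts of the other matrix gene lists are read beside the 39.7% of all genes called between 2i and RFP-negative serum ESCs, 19.7% higher and 20% lower. Of 8 collagen genes 2 rose and 0 fell in 2i ESCs, Col3a1 by 2.81 log2 and Col6a2 by 1.56 log2, and 5 rose without either EpiSC array. Of 5 other small proteoglycans Prelp alone was called (at least 1.78-fold higher), and of the cross-linking list 5 of 17 rose and 2 fell, with P4ha1 up by 2.25 log2, the procollagen protease enhancer Pcolce2 up by 1.67 log2 and the procollagen protease Bmp1 at -1.44 log2. Of 14 large proteoglycans 3 rose and 2 fell, with Sdc2 at 1.33 log2 and Sdc3 at -1.41 log2. Elastic fibre genes fell in 3 of 11 (Mfap5 at -1.45, Ltbp1 at -1.12 and Ltbp3 at -0.90 log2) and rose in 1. Of the TGF-beta axis 1 of 12 rose (Smad3, 0.91 log2) and 2 fell (Tgfbr3, -1.06, and Skil, -0.37 log2), of chain synthesis 5 of 13 rose and 1 fell (3 fell without either EpiSC array), and of the carboxylation list 2 of 4 rose (3 without either). Adjusted p-values of the named genes were 0.042 or lower in limma.

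In EpiLCs against 2i ESCs, 3 of 7 genes were lower and 0 higher, where 55.1% of all genes were called, 27.6% lower and 27.5% higher (limma). Lox fell by 3.62 log2 (SE 0.86, adjusted p = 0.0050). Lum was at least 3.17-fold lower (adjusted p = 6.2e-06) and Ogn at least 1.23-fold lower (adjusted p = 5.5e-05), neither being detected in EpiLCs. Bgn differed by -2.37 log2 (SE 1.11, adjusted p = 0.098), Dcn by -1.35 (SE 0.82) and Tgfbi by -1.22 (SE 0.50). Each had no overlap between the groups, a state whose share over all genes was not counted. Without either EpiSC array 6 of 7 were lower, where 63% of all genes were called, 31.8% lower and 31.2% higher, and Bgn (3.2e-09), Dcn (5.2e-07) and Tgfbi (2.7e-06) had these adjusted p-values. Mgp was not detected in either group. The median difference was -1.35 log2 over the 7 genes, against -0.01 over all genes, and fibroblast marker sums were 86.5 and 85.5 in EpiLCs against 96.7 and 95.8 in 2i ESCs. Smooth muscle or myofibroblast sums were 36.8 and 36.7 in EpiLCs against 32.2 and 32.5, pluripotency sums 85.9 and 86.6 against 94.5 and 94.9, and epithelial sums 49.0 and 48.9 against 36.8 and 36.6. The part of these in the result was not tested.

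The lists are read beside the 55.1% of all genes called between EpiLCs and 2i ESCs, 27.5% higher and 27.6% lower. Collagen genes were lower in EpiLCs in 5 of 8 and higher in 0 (median -1.59 log2): Col1a1 by -4.54 log2, Col6a1 by -3.96 log2 and Col3a1 by at least 6.69-fold. In the cross-linking list 6 of 17 rose and 6 fell, the fallen ones led by Pcolce (-3.23 log2), Pcolce2 (-3.21 log2) and Crtap (-1.78 log2), a partner of prolyl 3-hydroxylase. Large proteoglycans rose in 5 of 14 and fell in 3, with the neural proteoglycan Ncan at least 5.83-fold and Gpc4 1.84 log2 higher, and the TGF-beta axis rose in 7 of 12 and fell in 1, with Tgfb2 at least 2.73-fold, Ccn2 1.20 log2 and Smad3 1.10 log2 higher. Of the other small proteoglycans Prelp was at least 1.61-fold lower, of elastic fibre genes 1 of 11 rose and 2 fell (2 and 3 without either EpiSC array), of chain synthesis 4 of 13 rose and 5 fell, and of the carboxylation list Gas6 rose by 0.76 log2 while Ggcx, the gamma-glutamyl carboxylase, fell by 1.25 log2 and Vkorc1 by 0.34 log2. Adjusted p-values of the named genes were 0.017 or lower in limma.

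In EpiSCs the result depended on the array. Against 2i ESCs, 1 of 7 genes was higher and 2 lower with both arrays, where 32.4% of all genes were higher and 33.9% lower (limma). Lum fell by 2.09 log2 (SE 0.21, adjusted p = 1.4e-05) and Ogn at least 1.29-fold lower (adjusted p = 9.9e-06), and both were called lower with either EpiSC array left out. Mgp was at least 1.27-fold higher (adjusted p = 0.025), from EpiSC array 2 alone, and was not called without that array (adjusted p = 0.094) or without either 2i array (0.066 and 0.096). Dcn, Bgn, Lox and Tgfbi were not called and took opposite signs on the 2 arrays. With array 2 alone against 2i ESCs they were higher by 0.92, 1.74, 0.29 and 0.61 log2, and with array 1 alone their differences were -2.62, -3.08, -3.42 and -1.53 log2. Each of these 8 differences was called, at adjusted p-values of 0.036 or lower, and a single EpiSC array is there assumed to vary as the other groups do. The counts of all 7 were 5 higher and 2 lower with array 2 alone, where 69.9% of all genes were called, 34.5% higher and 35.4% lower, and 0 higher and 6 lower with array 1 alone, where 66.3% were.

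Against EpiLCs, EpiSCs were higher in 1 of 7 genes and lower in 0, where 56.4% of all genes were called, 27.9% higher and 28.5% lower (limma). That gene was Mgp, at least 1.33-fold higher (adjusted p = 0.032), and it was not called without EpiSC array 2 (0.12), EpiLC array 1 (0.13) or EpiLC array 2 (0.072). Lox differed by 2.05 log2 (SE 0.86, adjusted p = 0.065). With EpiSC array 2 alone 6 of 7 were higher and 0 lower, where 60.3% of all genes were called either way, by 4.11 log2 for Bgn, 3.91 for Lox, 2.27 for Dcn, 2.07 for Mgp, 1.83 for Tgfbi and 0.78 for Lum. With array 1 alone 0 were higher and 3 lower, where 60.1% were called: Dcn at -1.26, Bgn at -0.71 and Tgfbi at -0.30 log2. The fibroblast sums of the 2 EpiSC arrays, 81.6 and 101, lay below and above the EpiLC sums of 86.5 and 85.5.

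**Figure D5:**
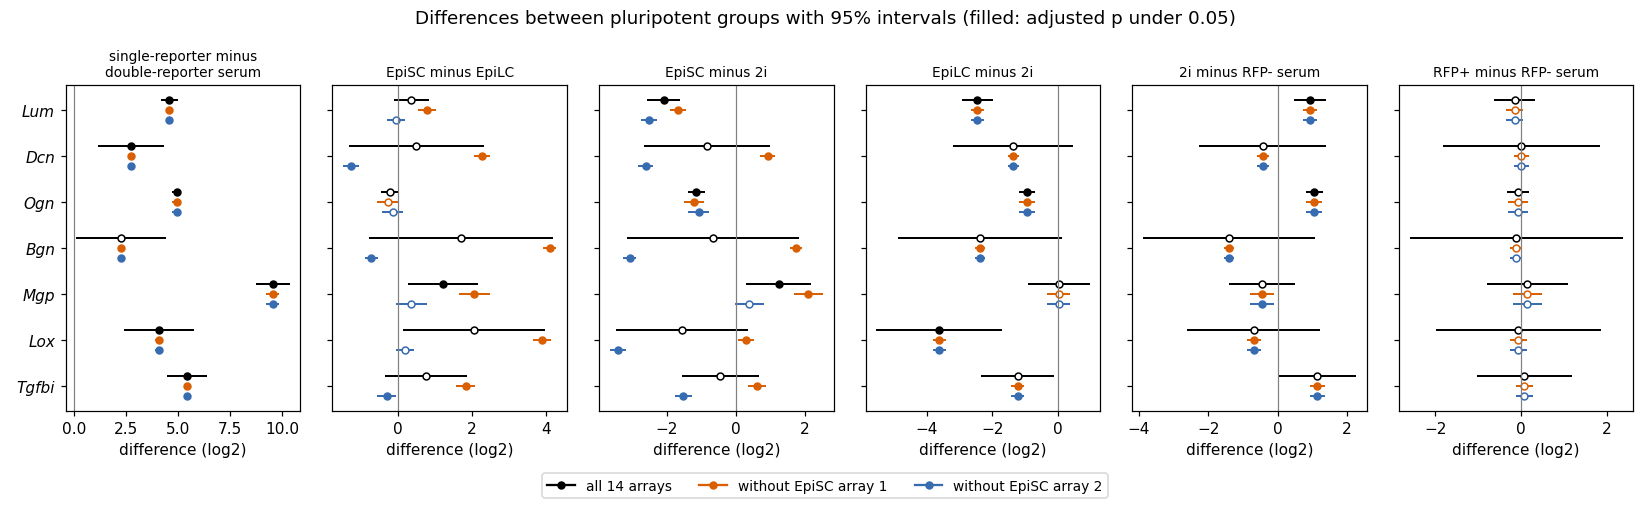
Difference (log2) of each gene in the 6 comparisons with its 95% interval, from the fit on all arrays and from fits without EpiSC array 1 or array 2; filled points had an adjusted p under 0.05. Intervals of Dcn, Bgn, Lox and Tgfbi narrow when either EpiSC array is left out, and in the EpiSC comparisons their values separate by array.

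The lists are read beside the 66.3% of all genes called between EpiSCs and 2i ESCs, 32.4% higher and 33.9% lower. Collagens were lower in EpiSCs than in 2i ESCs in 6 of 8 and higher in 0, with Col3a1 at least 7.06-fold lower, Col1a1 at -2.78 log2 and Col6a1 at -2.18 log2. The median collagen difference was -0.89 log2 with array 2 alone and -1.61 log2 with array 1 alone. Of the cross-linking list 7 of 17 rose and 4 fell, with Pcolce2 at -3.90 log2, Pcolce at -3.21 log2 and Crtap at -2.78 log2. The median of that list was 0.29 log2 with array 2 alone and 0.04 log2 with array 1 alone. Of the chain enzymes 3 of 13 rose and 7 fell with both arrays, with B3galt6 at -3.11 log2 and the xylose kinase Fam20b at -2.12 log2. The size of that lean depended on the array, with a list median of -0.28 log2 with array 2 alone and -0.48 log2 with array 1 alone. Of 14 large proteoglycans 5 rose and 4 fell with both arrays, and their median was 0.65 log2 with array 2 alone and 0.08 log2 with array 1 alone. Of 5 other small proteoglycans 0 were called with both arrays (limma), and their median was 0.07 log2 with array 2 alone and 0.03 log2 with array 1 alone.

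Elastic fibre genes rose in 5 of 11 and fell in 2 against 2i ESCs, with the microfibril gene Mfap2 at 3.28 log2. Their median was 0.60 log2 with array 2 alone and 0.12 log2 with array 1 alone. Of the TGF-beta axis 7 of 12 rose and 1 fell, with Tgfbr3 at 1.92 log2. The median of that axis was 0.79 log2 with array 2 alone and 0.44 log2 with array 1 alone. Against EpiLCs, where 56.4% of all genes were called, Mfap2 was 3.92 log2 higher in EpiSCs. Of 8 collagens 1 rose and 1 fell against EpiLCs with both EpiSC arrays. Their median difference from EpiLCs was 0.97 log2 with array 2 alone and -0.14 log2 with array 1 alone. Other marker lists differed from both groups on both EpiSC arrays: extraembryonic endoderm sums were 73.8 and 71.5 in EpiSCs, 62.8 and 63.1 in EpiLCs and 60.2 and 60.0 in 2i ESCs, and epithelial sums were 51.3 and 53.4 in EpiSCs, 49.0 and 48.9 in EpiLCs and 36.8 and 36.6 in 2i ESCs. The extraembryonic endoderm list read higher still in MEFs, at 82.0 and 81.4. The part of these lists in the results was not tested. Named genes had adjusted p-values of 0.036 or lower in limma.

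Across arrays the 7 genes moved together to different degrees, and these correlations describe arrays that share groups. Over all 14 arrays the 21 pairs had Pearson's r of 0.69 to 0.98 (median 0.83), highest for Dcn with Lox. Over the 12 arrays without MEFs r was 0.62 to 0.97 (median 0.89). Over the 10 arrays without MEFs and single-reporter serum ESCs it was -0.50 (Ogn with Mgp) to 0.97 (Dcn with Bgn), with a median of 0.47.

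Among all tested genes outside the set, those most alike in level over 14 arrays were Aqp1 for Mgp (r = 0.994), Lxn for Lox (0.993), Olfml3 for Ogn (0.993), Emp1 for Bgn (0.986), Serpinf1 for Dcn (0.986), Vps41 for Lum (0.982) and Prelp for Tgfbi (0.975). Over the 12 arrays without MEFs they were Cp for Mgp (0.998), Fbln2 for Bgn (0.996), Cavin3 for Lox (0.993), Serpina3n for Tgfbi (0.993), Saa3 for Lum (0.991), Igf1 for Ogn (0.989) and Tnfrsf22 for Dcn (0.988). Serpinf1 was among the 3 most alike genes of Dcn, Bgn and Lox over 14 arrays, and of Dcn and Bgn over 12. The nearest gene of each member changed when MEFs were left out.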

How the data were processed

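Per the file headers, the authors deposited a non-normalized signal intensity and a detection p-value for each of 25697 Illumina probes on 14 arrays. The submitters' processing notes name GenomeStudio 2011.1, with no settings. The authors also deposited log2 values, and how they were made is not given in the labels; they matched quantile-normalized log2 scanner signals without background correction (100% within 0.01 log2) and served as an alternative.

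Per the labels' protocols, sorted-cell total RNA was amplified to biotin-labelled cRNA. Intensities were corrected and normalized by the neqc function (R 4.3.3, limma 3.58.1), that is, normexp with detection p-values, an offset of 16, quantiles and log2. Probe symbols came from the platform annotation: 23978 probes had 1 symbol and 1719 none. A gene was represented by its brightest probe that 1 or more groups detected on each of their arrays (detection p-value under 0.05), for 10481 genes. A single limma fit of group means covered all 14 arrays (7 residual and 2.5 prior degrees of freedom), with Benjamini-Hochberg adjustment within each comparison, and every adjusted p is from limma. The model was tested on simulated data with the same spread per gene in every group, which cannot check the wider spread of the EpiSC arrays. A gene not detected on the dimmer side has a bound ("at least N-fold"): the brighter mean against, per array, its own signal or the dimmest detected probe's, whichever is higher. The number of arrays limits precision, with a median 95% half-width of 0.29 log2 over all genes tested in 2i against RFP-negative serum ESCs. Most of the matrix genes were less precise there. Their narrowest 95% interval was 0.81 to 1.30 log2 (Ogn) and their widest -3.89 to 1.09 log2 (Bgn).

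The 7 genes and the companion lists were chosen with earlier results of these data known. Named list genes are at most the 3 called with the largest difference per list and comparison, and the genes most alike are the 3 with the highest r per member. Marker genes S100a4, Fap and Myh11 were singled out after their values were seen. Replicate numbers did not pair the samples: over 21 pairs of groups, same-numbered arrays' deviations correlated at -0.03 to 0.09. Alternatives were no background correction, median scaling, the authors' values, array weights, an intensity trend, no detection filter, every probe, the compared groups alone, a replicate block and leaving out each array.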

Additional observations from a re-analysis of the deposited data

How the results depend on the processing

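The counts of called genes among the 7 were the same without background correction, with median scaling, the authors' values, an intensity trend, every probe or no detection filter, except that Bgn joined in single-reporter against double-reporter serum ESCs (7 in place of 6) with the authors' values or no background correction. With the replicate number as a block the counts were also the same: 0, 2, 3, 3, 1 and 6 for RFP-positive against RFP-negative, 2i against RFP-negative, EpiLCs against 2i, EpiSCs against 2i, EpiSCs against EpiLCs and single-reporter against double-reporter serum ESCs. With array weights the count became 4 for 2i against RFP-negative serum ESCs, 6 for EpiLCs against 2i ESCs and 2 for EpiSCs against EpiLCs, and 7 for single-reporter serum ESCs. With the compared groups alone in the fit these 4 counts were 7, 6, 0 and 7, and that of EpiSCs against 2i ESCs was 2 in place of 3. Leaving out each array gave 0 to 0 called genes between the serum gates, 2 to 7 for 2i against RFP-negative serum ESCs, 3 to 6 for EpiLCs against 2i ESCs, 2 to 7 for EpiSCs against 2i ESCs, 0 to 6 for EpiSCs against EpiLCs and 6 to 7 for single-reporter serum ESCs. Except between the serum gates, the highest count of each was reached without EpiSC replicate 1. Directions reversed in EpiSCs only: against 2i ESCs without EpiSC replicate 1, Dcn was 0.92, Bgn 1.74, Lox 0.29 and Tgfbi 0.61 log2 (-2.62, -3.08, -3.42 and -1.53 without replicate 2), and against EpiLCs without EpiSC replicate 2, Dcn was -1.26, Bgn -0.71 and Tgfbi -0.30 log2 (2.27, 4.11 and 1.83 without replicate 1). The cause of the difference between the EpiSC arrays was not tested. Differences from MEFs kept their sign for the 7 genes with no background correction and with median scaling, but with no background correction 20 of 42 shares of the MEF signal were over 1.5 times higher; that of Dcn in single-reporter serum ESCs turned to -0.58 on its second probe; 35 of 42 were at least 2-fold lower or, without MEF replicate 2, 36. With median scaling the median difference of all genes from 2i ESCs was -0.11 log2 for EpiLCs and -0.17 log2 for EpiSCs. Each of these medians was -0.01 log2 in the main fit. Signals near background set no fold for Ogn and Mgp in most pluripotent groups. The alternatives without each EpiSC array for companion lists, the shares on each EpiSC array and the correlations over 10 arrays were chosen after seeing the data.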
